A study of Mus musculus with 10 samples.

Results

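Brush border peptidases are enzymes anchored in the microvillar membrane of the proximal tubule, the first stretch of the nephron, where they cut peptides in the filtered fluid. The members described here are 10 genes fixed by name, Mep1a, Mep1b, Mme, Anpep, Enpep, Xpnpep2, Dpp4, Dpep1, Ace3 and Ggt1, out of 43629 genes listed in the count table. Each name matched 1 gene identifier. Of these members, 8 had enough reads for a test among the 10055 genes tested, Xpnpep2 had 48 reads in all, and Ace3 had 0.

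Kidney RNA was sequenced from male UM-HET3 mice, a genetically heterogeneous stock bred from several inbred strains, at 4 months of age. The control group held 6 mice on an unmedicated diet (Purina 5LG6). The rilmenidine group held 4 mice given the same diet with 10 ppm rilmenidine, an antihypertensive agent that binds imidazoline receptors, for 1 month from 3 months of age. Each library is described by its group and its replicate number in the labels. No source used here says whether animals shared a litter, cage or day.

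The peptidases work in series. Endopeptidases cut inside a peptide chain, aminopeptidases and dipeptidyl peptidases take residues from its start, and dipeptidases split the last pairs, so that single amino acids can be taken up by transporters of the same membrane. The group also inactivates hormones: neprilysin and the aminopeptidases cut angiotensins and other vasoactive peptides, and gamma-glutamyltransferase and dipeptidase 1 break down glutathione in the tubular fluid.

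Several of these enzymes hold a zinc ion through a short motif in which histidine and glutamate are followed, after 2 residues of any kind, by a second histidine. The coding sequences of GENCODE M21 (GRCm38) held this motif in 5 of the 10 members, in Mep1a, Mep1b, Mme, Anpep and Enpep, and in 712 of 21901 coding genes (3.25%). It was not found in Dpp4, a serine protease, in Ggt1, or in Dpep1 and Xpnpep2, which hold metal in other ways. The stretches below are shown so that the motif can be compared among the endopeptidases and aminopeptidases that carry it and Ace3, and that of Mep1b is not printed. Each is 63 bases of coding sequence, 5′ to 3′ on the gene's own strand, with the 15 bases of the motif in capitals.
Mep1a: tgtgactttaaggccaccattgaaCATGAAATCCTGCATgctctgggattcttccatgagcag
Mme: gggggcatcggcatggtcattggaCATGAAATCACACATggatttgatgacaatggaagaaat
Anpep: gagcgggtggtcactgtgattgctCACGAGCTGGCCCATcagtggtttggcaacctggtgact
Enpep: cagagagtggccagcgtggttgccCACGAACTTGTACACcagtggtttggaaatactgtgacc
Ace3: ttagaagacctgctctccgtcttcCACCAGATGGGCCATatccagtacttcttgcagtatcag
The capitals lie in exon 7 of 14 of Mep1a (chr17:43491659-43491673, minus strand), in exon 18 of 23 of Mme (chr3:63362021-63362035, plus strand), in exon 5 of 20 of Anpep (chr7:79839166-79839180, minus strand), in exon 5 of 20 of Enpep (chr3:129309772-129309786, minus strand) and in exon 9 of 14 of Ace3 (chr11:105997922-105997936, plus strand). In Ace3, a relative of angiotensin-converting enzyme, the motif carries the substitution E2Q, counted from 1 at its first histidine, so the exact motif was not found there. The products ranged from 410 residues for Dpep1 to 966 for Anpep, and the meprin subunits Mep1a and Mep1b had 760 and 704.

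The libraries held 863605 to 3232063 counts. Levels are given as normalized CPM, a gene's counts relative to the library size (in units of 1e6 counts) after scaling the sizes by relative log expression (RLE), a median-of-ratios method. Markers of the proximal tubule were tested in 9 of 9 cases, and their summed level was 45578 to 57982 CPM in control and 49679 to 72965 in rilmenidine libraries, with 0 genes past the threshold. Most of this sum was Kap, at 31432 to 46303 CPM in control and 36551 to 59590 in rilmenidine libraries. Liver markers reached at most 21.6 CPM in sum in any library and intestinal markers at most 4.89, with the intestinal phosphatase gene Alpi at 0, which bears on the label because the RNA protocol in the labels speaks of liver while the tissue is given as kidney. Reads on olfactory and vomeronasal receptor genes, which a kidney is not known to use at any large level, stood under 10 CPM in control 6, rilmenidine 3 and rilmenidine 4 and at 45.7 to 387 CPM in the other 7 libraries. The same 3 libraries held the most counts, at 2559118 to 3232063 against at most 1924490 in the other 7. Results within those 7 libraries therefore cannot tell receptor reads from depth. The nuclear RNA Malat1 stood at 284 and 398 CPM in control 6 and control 2, at 1182 to 2100 in the other controls, and at 306 to 393 in rilmenidine libraries. In whole kidney RNA, fewer cells of a type and less RNA per cell cannot be told apart.

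No member passed the threshold of an adjusted p-value of 0.05 in edgeR's quasi-likelihood test, and 0 of the 10055 genes did (0%), while 1061 genes had an unadjusted p under 0.05. DESeq2 called 60 genes and edgeR's likelihood ratio test 44, with 0 members among them. The adjusted p-values of the 8 members ran from 0.313 for Mme to 0.994 for Dpp4. At an unadjusted p under 0.05, 1 of the 8, Mme, was higher with rilmenidine and 0 were lower, against 4.43% of all genes higher and 6.13% lower. In 7 of the 8 the log2 fold change was above 0, against 50.3% of all genes, and its median over the members was 0.22, against 0.0021 over all genes tested. Those above 0 included Dpp4 at 0.0080 and Ggt1 at 0.034. Over the other settings the members' median ran from 0.050 with log2 library size as a covariate to 0.38 with the replicate number as a block. It was 0.056 within the 7 libraries where receptor genes reached 10 CPM. The groups did not overlap in 0 members in either direction, against 0.796% of genes that lay wholly higher and 0.875% wholly lower with rilmenidine.

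**Figure D1:**
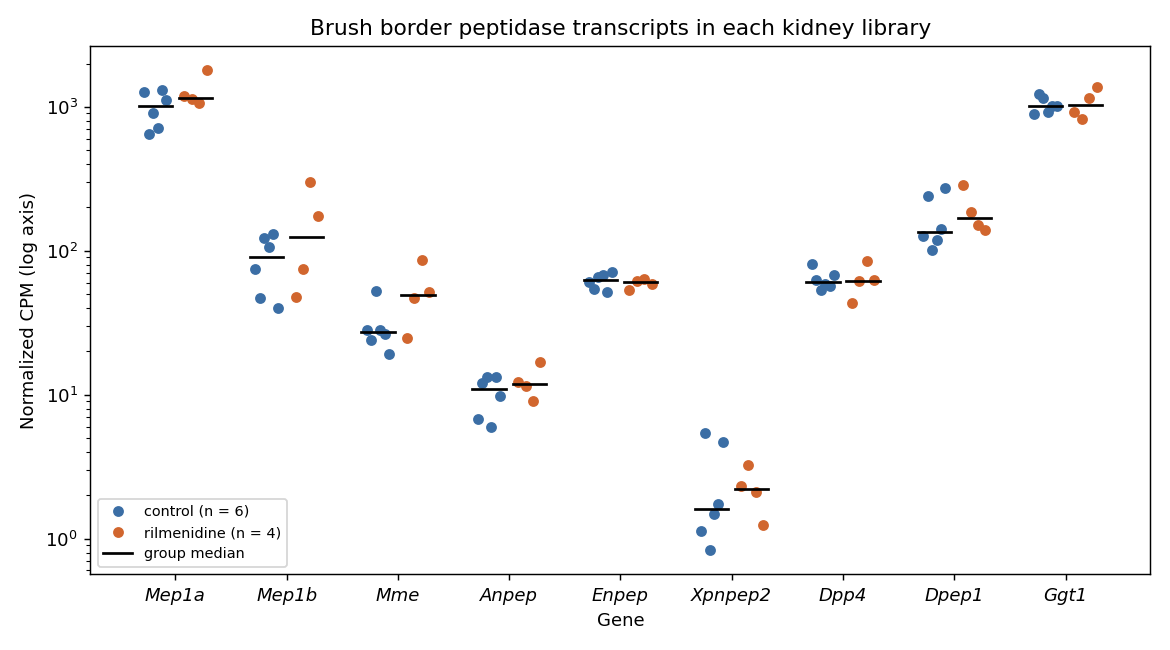
Normalized CPM (vertical log axis) of the 9 members with reads in each of 6 control and 4 rilmenidine libraries, with the group median as a bar. Mep1a and Ggt1 stand highest, with control means of 994 and 1037 CPM, and the groups overlap for every gene. All genes shown but Enpep and Xpnpep2 reach their highest value in a rilmenidine library. The share of all genes tested that do so is not given, so this has no background beside it.

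The levels of the members spanned a wide range, and 2 genes made up most of the sum. Mep1a and Ggt1 together gave 76.0 to 86.3% of the members' summed CPM. That sum was 2453 ± 256 CPM (SD, n = 6) in control and 2889 ± 566 (SD, n = 4) in rilmenidine libraries. The rilmenidine libraries 4 and 3, at 3675 and 2911, stood above the control range of 2023 to 2746, and libraries 1 and 2, at 2572 and 2397, stood within it. Without rilmenidine 4 the difference between the group means was 173 CPM, against 435 with it.

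Divided by the length of the longest coding transcript, the control levels were ordered as follows. Ggt1 stood at 479 ± 58.8 CPM per kb and Mep1a at 335 ± 94.8 (SD, n = 6 each), with overlapping ranges. Dpep1 followed at 74.6 ± 31.7 and Mep1b at 38.1 ± 17.0, again overlapping. Enpep at 14.8 ± 1.85 and Dpp4 at 12.0 ± 1.88 overlapped each other, and the highest Enpep value, 17.0, lay just under the lowest of Mep1b, 17.6. Mme at 3.70 ± 1.44 overlapped Anpep at 2.68 ± 0.854, and Xpnpep2 came last among the members with reads at 0.726 ± 0.563, its highest value of 1.54 just under the lowest of Anpep, 1.57. The library protocol reads the 3′ end of a transcript, so division by length lowers long transcripts such as that of Mme (8039 bases) against short ones such as that of Ggt1 (2167 bases). The order and some of the overlaps depended on this division. In undivided CPM, Enpep (52.1 to 71.0) lay within the control range of Mep1b (40.2 to 131), Mme (19.1 to 52.3) did not overlap Anpep (5.94 to 13.3), and the mean of Dpp4 (63.3) lay above that of Enpep (61.9).

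The endopeptidases were the meprin subunits and neprilysin, and all 3 had a log2 fold change above 0. Mep1a (GRCm38 chr17:43474324-43502812, minus strand) encodes meprin alpha, a zinc endopeptidase of the astacin family that is abundant in rodent kidney. Its level in control libraries ran from 648 to 1301 CPM with a median of 1015, and rilmenidine libraries 1 to 4 held 1186, 1132, 1065 and 1805 CPM. The libraries 1, 2 and 3 of the rilmenidine group lay inside the control range and library 4 above it. The group means were 994 ± 281 (SD, n = 6) and 1297 ± 342 (SD, n = 4), and the log2 fold change was 0.38 (SE 0.21, 95% interval -0.058 to 0.83), with an adjusted p-value of 0.536 in edgeR. Without rilmenidine 4 the log2 fold change was 0.18.

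Mep1b (chr18:21061923-21100199, plus strand) encodes meprin beta, the subunit that stays anchored in the membrane and holds alpha subunits there in rodent kidney. Control libraries 1 to 6 held 75.2, 46.7, 123, 107, 131 and 40.2 CPM, and rilmenidine libraries 1 to 4 held 47.6, 74.4, 302 and 175. The rilmenidine group was split, with libraries 1 and 2 within the control range and libraries 3 and 4 above every control. The group means were 87.1 ± 38.9 (SD, n = 6) and 150 ± 116 CPM (SD, n = 4), and the highest library stood 7.53-fold over the lowest. The log2 fold change was 0.81 (SE 0.41, 95% interval -0.066 to 1.68) and the adjusted p-value in edgeR 0.510. It was 0.22 without rilmenidine 3 and 1.10 without rilmenidine 1. With log2 Malat1 as a covariate it was 1.70 (unadjusted p = 0.00716, adjusted p-value 1.00 in edgeR). With log2 library size as a covariate it was 0.45 (unadjusted p = 0.5258 in edgeR).

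Both high Mep1b libraries were also among the 3 with few reads on receptor genes, and the direction turned when these were set aside. Among the 5 control and 2 rilmenidine libraries where receptor genes reached 10 CPM, the means were 96.5 and 61.0 CPM and the log2 fold change was -0.66, with an adjusted p-value of 0.485 in edgeR. Control 6, the remaining library with few receptor reads, held the lowest Mep1b level of all, 40.2 CPM. The 3 libraries set aside were also those with the most counts, so receptor reads and depth cannot be told apart here. The part of the receptor gene reads in the Mep1b values was not tested otherwise.

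Mme (chr3:63241537-63386030, plus strand) encodes neprilysin, which degrades natriuretic peptides, bradykinin and angiotensins. Control libraries 1 to 6 held 28.1, 24.0, 52.3, 28.2, 26.6 and 19.1 CPM, and rilmenidine libraries 1 to 4 held 24.9, 46.7, 86.1 and 51.5. Of the rilmenidine libraries only library 3 exceeded every control, because control 3 stood apart from the other controls at about the level of rilmenidine 2 and 4. The group means were 29.7 ± 11.6 (SD, n = 6) and 52.3 ± 25.3 CPM (SD, n = 4), on 25 to 246 reads a library. The log2 fold change of 0.87 (SE 0.29, 95% interval 0.25 to 1.48) was the largest of the 8 members, with an unadjusted p of 0.00882 that ranked 283 among all genes and an adjusted p-value of 0.313 in edgeR. It was 0.51 without rilmenidine 3 and 0.18 among the 7 libraries where receptor genes reached 10 CPM, where the means were 31.8 and 35.8 CPM.

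The call on Mep1b and Mme depended on which other genes entered the fit. With every gene that had at least 1 count in any library kept (27565 genes), the log2 fold changes stayed at 0.81 and 0.87 and the adjusted p-values in edgeR were 0.000127 for Mep1b and 0.00128 for Mme. The cause of this difference in p was not tested. With every gene kept, 241 of the 27565 genes passed the threshold, against 0 of 10055 in the main fit.

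**Figure D2:**
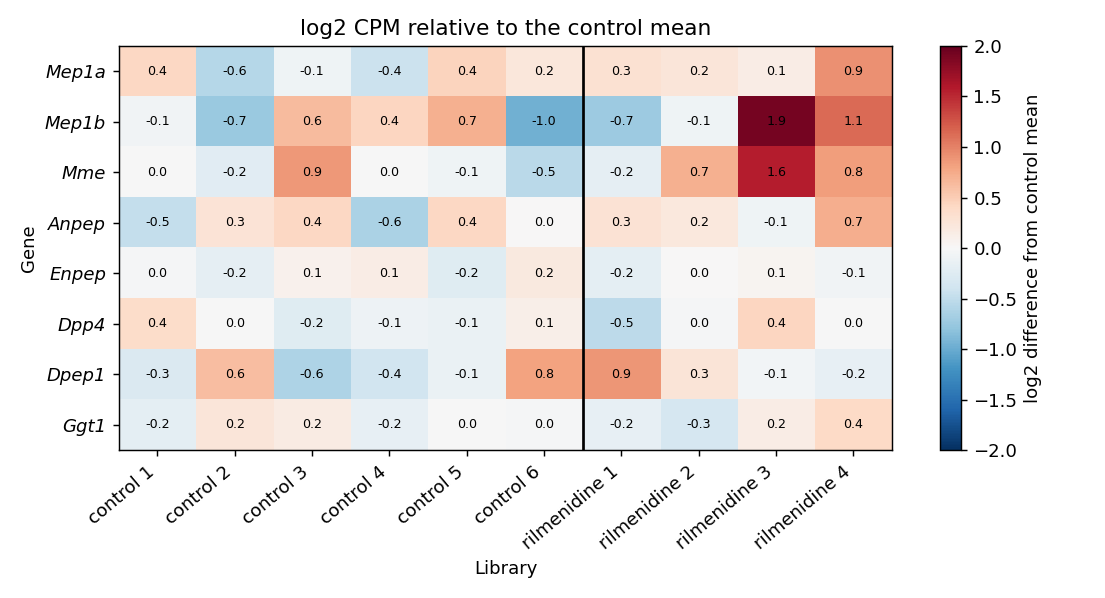
Log2 CPM of the 8 tested members (rows) in each library (columns) as the difference from the control mean, in log2 units, with controls left of the line. Rilmenidine 3 and 4 carry the highest Mep1b values, Mme is highest in rilmenidine 3 and next in control 3 and rilmenidine 4, and Dpep1 is high in rilmenidine 1, control 6 and control 2, where Mep1b is low.

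The levels of Mep1b and Mme varied together across libraries. Over the 10 libraries the Pearson correlation of their log2 levels was 0.833, the highest of the 28 member pairs, which share libraries and depth and are described with no test. Mep1a, which forms one enzyme with Mep1b, did not follow it closely (r = 0.275). Dpep1 ran opposite to both, with r = -0.700 against Mep1b and -0.502 against Mme.

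The aminopeptidases showed no group difference past their spread. Enpep (chr3:129269175-129332720, minus strand) encodes aminopeptidase A, which turns angiotensin II into angiotensin III. Control libraries ran from 52.1 to 71.0 CPM with a median of 63.1, and rilmenidine libraries 1 to 4 held 53.3, 61.9, 64.0 and 58.7 CPM. All 4 lay inside the control range, and the highest of the 10 libraries stood only 1.36-fold over the lowest. Its log2 fold change was -0.056 (SE 0.14, 95% interval -0.34 to 0.23), which corresponds to a fold between 0.787 and 1.17, with an adjusted p-value of 0.929 in edgeR.

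Anpep (chr7:79821803-79861059, minus strand) encodes aminopeptidase N, which removes neutral residues from peptide ends and is the CD13 antigen. Control libraries ran from 5.94 to 13.3 CPM with a median of 10.9, and rilmenidine libraries 1 to 4 held 12.2, 11.4, 9.10 and 16.9. The 3 lowest rilmenidine libraries lay inside the control range. The log2 fold change was 0.27 (SE 0.28, 95% interval -0.32 to 0.86) with an adjusted p-value of 0.780 in edgeR, on 6 to 54 reads a library. The interval spans folds of 0.802 to 1.81.

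Xpnpep2 (chrX:48108725-48136981, plus strand) encodes the membrane form of aminopeptidase P, which cuts before proline, as in bradykinin. Control libraries 1 to 6 held 1, 9, 1, 2, 3 and 12 reads and rilmenidine libraries 4, 6, 6 and 4. These reads were spread over both groups, and only 4 libraries reached 6 reads, so the gene was left out of the main test. The mean log2 CPM differed by -0.076 between rilmenidine and control, with p = 0.871 in a two-sided exact permutation test over 210 arrangements of 6 and 4 libraries.

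The enzymes that release or split dipeptides had log2 fold changes nearer 0 than the endopeptidases, and none passed the test. Dpp4 (chr2:62330073-62412231, minus strand) encodes dipeptidyl peptidase 4, which inactivates incretins by removing their first residue pair. Control libraries ran from 53.1 to 80.8 CPM with a median of 60.5, and rilmenidine libraries 1 to 4 held 43.5, 61.9, 84.7 and 62.1. Library 1 lay below and library 3 above all controls, and the other two lay inside their range. For Dpp4 the log2 fold change was 0.0080 (SE 0.17, 95% interval -0.36 to 0.37), with an adjusted p-value of 0.994 in edgeR. An antisense gene, Gm13561, overlaps Dpp4 exons and had 10 reads in all against 1222 for Dpp4, and reads of the overlap cannot be assigned where the counting did not use the strand.

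Dpep1 (chr8:123186242-123201812, plus strand) encodes dipeptidase 1, which splits cysteinylglycine and leukotriene D4. Control libraries 1 to 6 held 127, 239, 101, 120, 142 and 273 CPM, and rilmenidine libraries 1 to 4 held 286, 187, 150 and 138. Control 2, control 6 and rilmenidine 1 stood at 239 CPM or more, and the other 7 libraries at 187 or less. The log2 fold change was 0.17 (SE 0.27, 95% interval -0.39 to 0.73), with an adjusted p-value of 0.879 in edgeR. Without rilmenidine 1 it was -0.092, and with log2 Malat1 as a covariate it was -0.36. Among the 7 libraries where receptor genes reached 10 CPM it was 0.69 (unadjusted p = 0.0217, adjusted p-value 0.384 in edgeR).

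Among control mice, the 2 highest Dpep1 levels went with the 2 lowest Malat1 levels, but the other controls did not follow this order. Control 2 and control 6, the controls with the lowest Malat1, held the highest Dpep1 of their group, and all 4 rilmenidine libraries had Malat1 between the levels of those 2 controls. Dpep1 in the rilmenidine libraries nevertheless ran from 138 CPM in rilmenidine 4 to 286 in rilmenidine 1. In controls 3, 4, 1 and 5, Malat1 stood at 1182, 1466, 1482 and 2100 CPM. Dpep1 rose in the same order there, at 101, 120, 127 and 142 CPM. The part of Malat1 in the Dpep1 values was otherwise not tested.

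Ace3 (chr11:105994675-106005443, plus strand), the relative of angiotensin-converting enzyme with the altered zinc motif, had 0 reads in every library. A count of 0 allows up to 3 counts, which is 0.928 to 3.47 CPM in single libraries and 0.155 CPM over the 19387497 counts of all libraries, for counting error only. Ace itself, which is not a member, stood at 48.2 ± 9.09 (SD, n = 6) and 52.8 ± 21.6 CPM (SD, n = 4).

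Ggt1 (chr10:75561604-75586200, plus strand) encodes gamma-glutamyltransferase 1, which removes the glutamyl group of glutathione and whose product is then split by dipeptidase 1. Control libraries ran from 898 to 1222 CPM with a median of 1018, and rilmenidine libraries 1 to 4 held 916, 818, 1148 and 1366. Library 2 lay just below and library 4 just above the control range. For Ggt1 the log2 fold change was 0.034 (SE 0.16, 95% interval -0.29 to 0.36), a fold between 0.815 and 1.29, with an adjusted p-value of 0.967 in edgeR. Without rilmenidine 4 it was -0.11.

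**Figure D3:**
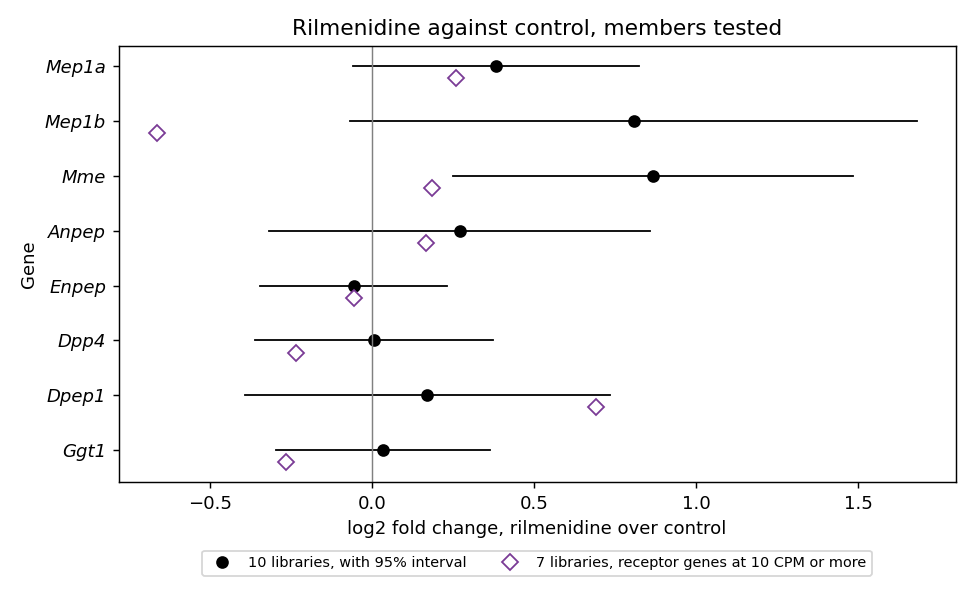
Log2 fold change of rilmenidine over control (horizontal axis) for the 8 tested members, as black points with 95% intervals from all 10 libraries and as open diamonds from the 7 libraries where receptor genes reached 10 CPM. Mme alone has an interval that leaves out 0, from 0.25 to 1.48, and in the 7 libraries Mme moves to 0.18, Mep1b to -0.66 and Dpep1 to 0.69.

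Ratios of members within a library do not depend on the normalization, and 3 functional pairs were compared. The log2 ratio of Mep1b to Mep1a reads was -3.60 ± 0.78 (SD, n = 6) in control and -3.43 ± 1.20 (SD, n = 4) in rilmenidine libraries, a difference of 0.16 (exact permutation p = 0.805, adjusted p 0.805). As a plain ratio, the meprin beta reads ran from 0.0359 per meprin alpha read in control 6 to 0.284 in rilmenidine 3, and both groups spread widely. The log2 ratio of Dpep1 to Ggt1, enzymes acting in turn on glutathione, was -2.73 ± 0.55 (SD, n = 6) in control and -2.51 ± 0.74 (SD, n = 4) in rilmenidine libraries (difference 0.21, exact permutation p = 0.600, adjusted p 0.805). Among the 7 libraries where receptor genes reached 10 CPM, the differences were 0.99 for this ratio (exact permutation p = 0.0476, adjusted p 0.143) and -0.92 for that of Mep1b to Mep1a. That of Enpep to Anpep, aminopeptidases acting in turn on angiotensin peptides, was 2.62 ± 0.59 (SD, n = 6) and 2.28 ± 0.43 (SD, n = 4), a difference of -0.34 (exact permutation p = 0.338, adjusted p 0.805). The smallest p these two-sided tests could give was 0.0048 with all 10 libraries. Among the 7 libraries the smallest possible p was 0.0476, so the Dpep1 to Ggt1 value there sat at its limit.

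The same 3 pairs showed no correlation past the threshold over the 10 libraries. For Mep1a and Mep1b, Pearson's r was 0.275 (permutation p = 0.445, adjusted 0.667) and Spearman's rho 0.297 (permutation p = 0.408, adjusted 0.611), and r was -0.227 without control 2 and rilmenidine 4, the libraries farthest from the median of Mep1a. For Ggt1 and Dpep1, r was -0.148 (permutation p = 0.677, adjusted 0.677) and rho -0.176 (permutation p = 0.629, adjusted 0.629), and r was 0.0026 without rilmenidine 2 and 4. For Anpep and Enpep, r was -0.496 (permutation p = 0.148, adjusted 0.444) and rho -0.576 (permutation p = 0.0893, adjusted 0.268), and r was -0.457 without control 1 and control 4. Within the 7 libraries where receptor genes reached 10 CPM, r was 0.152, -0.0528 and -0.566 for these pairs in the same order. The smallest adjusted permutation p there was 0.668 for r and 0.5 for rho.

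The members differed in their spread between mice of one group, given by edgeR's biological coefficient of variation (BCV), the part of a gene's relative spread beyond counting error. Mep1b had a BCV of 0.449, against 0.193 expected from the trend at its level, and lay at the 97.8th percentile of all genes tested. Enpep, at 0.144 against a trend of 0.194, lay at the 5.55th percentile. Mme at 0.309 and Dpep1 at 0.298 also stood above their trends of 0.196 and 0.195, Mep1a at 0.253 stood near its trend of 0.230, and Anpep, Dpp4 and Ggt1 stood at 0.229, 0.186 and 0.200. The median BCV of the 8 members was 0.241, against 0.199 over all genes.

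**Figure D4:**
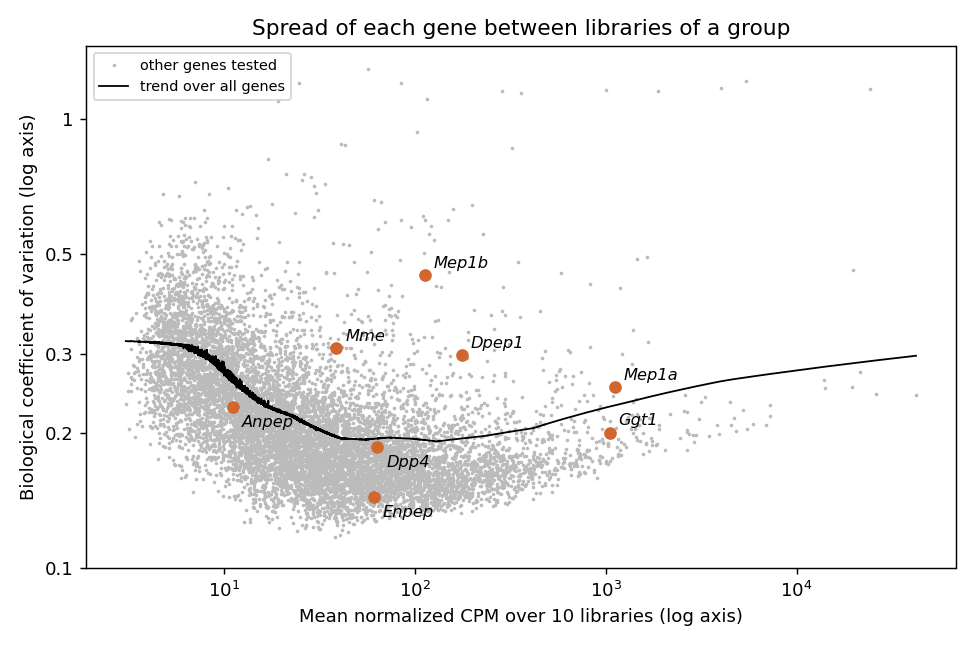
Biological coefficient of variation (vertical log axis) against the mean normalized CPM over 10 libraries (horizontal log axis) for all 10055 genes tested, with the trend as a line and the 8 members as orange points. Mep1b (0.449), Mme (0.309) and Dpep1 (0.298) lie above the trend and Enpep (0.144) below it.

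The genes whose levels were most like the mean log2 level of the 8 tested members over the 10 libraries were named by a rule and are given as a description. They were Napsa (r = 0.921), Marveld2 (0.900), Irx1 (0.895), Akr1c18 (0.894) and B4galt6 (0.875). Napsa, which encodes the aspartic protease napsin A, stood at 440 to 591 CPM in control libraries and at 460, 647, 1369 and 1120 in rilmenidine libraries 1 to 4. Akr1c18 stood at 5.94 to 37.3 CPM in control and at 1.74, 25.5, 116 and 76.2 in rilmenidine libraries, with the same libraries 3 and 4 highest. The correlations are the highest of all genes tested over only 10 points that share libraries and depth.

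Single members had other nearest genes, which were looked up after the values were seen. For Mme these were Gclm (r = 0.950), a subunit of the enzyme that starts glutathione synthesis, the transporter gene Slc22a19 (0.940) and Cubn (0.933), which encodes the endocytic receptor cubilin. For Mep1b they were Ghr (0.940), the growth hormone receptor gene, Glb1l2 (0.937) and Tmigd1 (0.937). For Dpep1 they were S100a1 (0.938), Ndufs7 (0.933), a subunit of respiratory complex I, and Tecr (0.906), and for Mep1a Alg12 (0.923).

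Other peptidase genes showed as few differences. Of 25 further surface peptidases, 14 could be tested and 0 passed the threshold, with a median log2 fold change of 0.11. Prss8, the channel-activating protease prostasin, had the smallest p of this list, at 142 ± 25.2 (SD, n = 6) against 190 ± 15.4 CPM (SD, n = 4), a log2 fold change of 0.41 (unadjusted p = 0.00855, adjusted p-value 0.313 in edgeR). All 21 peptidases of the cell interior were tested, with 0 past the threshold and a median of -0.027. Dpp8, a cytosolic relative of Dpp4, had a log2 fold change of -0.42 (unadjusted p = 0.0464, adjusted p-value 0.465 in edgeR).

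The genes that take up or use what the peptidases release passed the test in 0 cases as well. Of 14 peptide and amino acid transporters or their partners 11 were tested, with a median log2 fold change of 0.10, and Slc6a19, the neutral amino acid transporter of the brush border, had the smallest p at 607 ± 115 (SD, n = 6) against 749 ± 324 CPM (SD, n = 4), a log2 fold change of 0.30 with an adjusted p-value of 0.658 in edgeR. Of 10 genes of glutathione turnover 8 were tested, with a median of 0.095, and Gss, glutathione synthetase, had a log2 fold change of 0.40 (unadjusted p = 0.0491, adjusted p-value 0.471 in edgeR). Of 6 genes of the angiotensin system 4 were tested, with a median of -0.12, and the receptor gene Agtr1a had a log2 fold change of -0.18 (adjusted p-value 0.641 in edgeR).

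Genes that build the brush border gave no call either. Of 13 structural genes 12 were tested, with a median log2 fold change of -0.025, and Anks4b, which encodes a protein of the complex that links microvilli at their tips, stood at 25.4 ± 7.43 (SD, n = 6) against 17.1 ± 2.14 CPM (SD, n = 4), a log2 fold change of -0.59 (unadjusted p = 0.0169, adjusted p-value 0.349 in edgeR).

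Among the markers of the last segment of the proximal tubule, Cyp7b1 varied between libraries along with Mme (r = 0.917 over 10 libraries, looked up after the values were seen). Cyp7b1 stood at 16.8 to 80.5 CPM in control, highest in control 3, and at 9.86, 51.0, 210 and 141 CPM in rilmenidine libraries 1 to 4, a log2 fold change of 1.52 (unadjusted p = 0.0109, adjusted p-value 0.321 in edgeR). Slc22a30 of the same list had a log2 fold change of -1.09 (unadjusted p = 0.00537, adjusted p-value 0.286 in edgeR), and 4 of the 5 genes of this list lay below 0. The summed level of the list was 1953 to 4126 CPM in control and 1447 to 3306 in rilmenidine libraries, with 0 of 5 defining markers at 0 in all libraries. The part of these cells in the Mep1b and Mme values was not tested.

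The remaining marker lists held 0 genes past the threshold. Early proximal tubule markers (3 of 3 tested) summed to 878 to 1427 CPM in control and 939 to 986 in rilmenidine libraries, with Slc5a12 at a log2 fold change of -0.34. Among all proximal tubule markers Miox had the smallest p (log2 fold change 0.39, unadjusted p = 0.0467, adjusted p-value 0.47 in edgeR). Of the thick ascending limb markers 2 of 3 were tested, and Umod, which encodes uromodulin, had a log2 fold change of 0.61 (unadjusted p = 0.00237, adjusted p-value 0.244 in edgeR). For Slc12a1, the other one tested, it was 0.082 (unadjusted p = 0.732 in edgeR). Cldn16, with too few reads for the test, stood at 2.96 ± 1.78 CPM (SD, n = 6) in control and 8.18 ± 2.83 (SD, n = 4) in rilmenidine libraries. Of 6 injury markers 3 were tested, and Spp1, osteopontin, had a log2 fold change of 0.54 (unadjusted p = 0.0107, adjusted p-value 0.321 in edgeR). The other injury markers tested, Clu and Vcam1, had log2 fold changes of -0.12 and 0.032 (unadjusted p = 0.587 and 0.934 in edgeR). Lcn2 and Krt20 had at most 5 and 4 reads in a library. Havcr1, the gene of kidney injury molecule, had too few reads for the test and is named after its values were seen. It stood at 4.82 ± 3.86 CPM (SD, n = 6) in control, at most 11.6 in control 3, and at 21.7 ± 19.2 (SD, n = 4) in rilmenidine libraries, from 1.74 in rilmenidine 1 to 45.5 in rilmenidine 3, the library with the highest Mep1b and Mme. The injury list summed to 234 to 437 CPM in control and 319 to 394 in rilmenidine libraries, with 0 of 6 markers at 0 in all libraries, and its part in the Mep1b and Mme values was not tested. Podxl of 6 podocyte markers (4 tested), Ehd3 of 5 endothelial markers (5 tested), C1qa of 6 immune markers (4 tested) and Alb of 3 liver markers (1 tested) had log2 fold changes of 0.12, -0.21, 0.31 and 0.27 with adjusted p-values of 0.688 to 0.910 in edgeR. Of 4 intestinal markers 0 had enough reads for a test.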

How the data were processed

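Kidney RNA of 6 control and 4 rilmenidine mice was sequenced with a 3′ end protocol. The authors deposited raw read counts per Ensembl gene; the submitters' processing notes name bcl2fastq 1.8.4, Trimmomatic 0.32, STAR 2.5.2b, featureCounts 1.5 and mm10. Strand setting and handling of molecular identifiers are not given in the sources used here. If duplicates were not collapsed, counts overstate the molecules sampled. The study's methods give more control kidneys than are analysed here. Symbols came from GENCODE M21 (42548 of 43629 genes matched).

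A gene was tested when 66.6% of libraries or more held 6 reads of it (10055 genes). Counts were scaled by RLE, and edgeR 4.0.16 under R 4.3.3 compared the groups by its quasi-likelihood test, with no covariate and all 10 libraries in one fit. P-values were adjusted by Benjamini-Hochberg over all genes tested, and 0.05 was the threshold. A prior count of 2 entered log2 levels and one of 0.5 the ratios. Ratios of 3 member pairs and Xpnpep2 were compared by two-sided exact permutation tests, and correlations used 100000 permutations. The edgeR quasi-likelihood test was tried on simulated counts, with planted changes larger than the fold changes of the members. Total counts of 863605 to 3232063 a library limit the precision of low genes such as Anpep and Xpnpep2.

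Groups and replicate numbers were taken from the labels. P-values measure the spread between these samples. No 2 libraries agreed within sampling noise. The members and lists were chosen with earlier results of these data known. Named genes were the members, the genes of each further list with an unadjusted p under 0.05 (at most 3 in each direction, else the gene with the smallest p) and the 5 genes most like the mean of the members. The remaining injury and thick ascending limb markers and Kap were named outside this rule, after the values were seen. The result of 1 further list is not reported here. Alternatives were TMM, other count filters, DESeq2 1.42.0, the likelihood ratio test, a block for the replicate number, Malat1 or library size as covariates, fits without each library in turn, and the 7 libraries where receptor genes reached 10 CPM. The Xpnpep2 test and the neighbours of single members were added after seeing the data.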

Additional observations from a re-analysis of the deposited data

Results flagged for a closer look

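Of 26 groups of values examined, 2 held a library far from the others of its group, and chance alone marks about 1 group in 20. Mep1a stood at 1805 CPM in rilmenidine 4, against 1065 to 1186 in the other 3 rilmenidine libraries. Mme stood at 52.3 CPM in control 3, against 19.1 to 28.2 in the other 5 control libraries, and its log2 fold change was 1.10 without that library.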

How the results depend on the processing

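The number of genes past the threshold, 0 in the reported fit, was 241 with every gene of at least 1 count kept, 60 in DESeq2, 44 in the likelihood ratio test, 3 with the replicate number as a block and 0 to 37 when 1 library was left out, highest without control 6. Members past the threshold numbered 2 (Mep1b and Mme) with every gene kept and 0 in the other settings. Members at an unadjusted p under 0.05, 1 in the reported fit, numbered 3 with every gene kept, 3 with the replicate block and 3 with Malat1 as a covariate. They numbered 0 with library size as a covariate, and 0 to 3 when 1 library was left out, 0 without rilmenidine 3. The share of all genes at that p is not given for these settings, so the counts have no background beside them. Libraries with the same replicate number shared little of their deviations from the group means (correlations -0.0768 to 0.0775 over 4 numbers). So few pairs cannot exclude a shared litter, cage or day.

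Directions turned for values near 0 and for Mep1b. Within the 7 libraries where receptor genes reached 10 CPM, log2 fold changes were -0.66 for Mep1b, -0.23 for Dpp4 and -0.27 for Ggt1, the Xpnpep2 difference was 0.50 and that of the log2 ratio of Mep1b to Mep1a -0.92. With library size as a covariate Dpp4 gave -0.080, Dpep1 -0.0071 and Ggt1 -0.19. With Malat1 as a covariate Dpp4 gave -0.054, Dpep1 -0.36 and Ggt1 -0.048. With the replicate block Dpp4 gave -0.018 and the ratio of Mep1b to Mep1a -0.066, and the block ended no other direction. Leaving out 1 library gave -0.17 to 0.14 for Dpp4, -0.092 to 0.37 for Dpep1, -0.11 to 0.14 for Ggt1, -0.28 to 0.17 for Xpnpep2, -0.38 to 0.56 for the ratio of Mep1b to Mep1a and -0.063 to 0.48 for that of Dpep1 to Ggt1. Within controls the correlation of Ggt1 and Dpep1 was 0.313. The difference in the members' summed CPM, 435, was 65.0 within the 7 libraries and 173 to 599 when 1 library was left out. The causes were not tested. Mep1a, Mme, Anpep and Enpep kept their direction in every setting that gave them a value, and Anpep had none with at least 10 counts in every library. Ace3 and, in most fits, Xpnpep2 had too few reads for a fold change.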
